A study of Homo sapiens with 8 samples.

Results

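Heat shock proteins of the cytosol and the mitochondria were examined through 10 genes, HSPA8, HSPA1A, HSPA1B, DNAJB1, HSPH1, BAG3, HSPB1, HSP90AA1, HSPD1 and HSPE1. They were found by their symbols among the 58870 gene rows of the table, where each had 1 row, and all 10 passed the filter on low counts. RNA was sequenced in 8 libraries from Panc 10.05, a cell line established from a human adenocarcinoma of the pancreatic ducts. Of these, 4 were from control cells and 4 from cells labelled as ELAPOR1 overexpression (replicates 1 to 4 in each group). The means of overexpression, the content of the control cells, the number of clones and whether replicates were separate cultures were not given in the sources used here. The p-values therefore measure the spread between these libraries, which may be technical. In bulk RNA, fewer cells that express a gene and less RNA per cell cannot be told apart.

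Heat shock proteins are molecular chaperones that bind unfolded proteins and help them to fold or pass them on for degradation. In the cytosol, HSP70 works in cycles driven by ATP. J-domain proteins deliver its clients and start the cycle, and exchange factors release the nucleotide and end it. HSP90 takes over clients such as kinases and steroid receptors, small heat shock proteins hold unfolding proteins without ATP, and in mitochondria the HSP60 chaperonin with its HSP10 lid folds imported proteins. Heat and other protein stress raise many of these genes through the transcription factor HSF1, which binds heat shock elements, inverted repeats of GAA and TTC in their promoters. Tumour cells often hold high levels of these chaperones.

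The promoters of the 10 genes are shown for the heat shock elements they hold, since this is the sequence through which the genes are known to be induced together. RefSeq promoter windows of GRCh38.p14, from 250 bases before to 50 bases after an annotated start, were available for all 10 genes, 14 windows in all. Searched on both strands, an element of 3 units, GAA, TTC and GAA in turn with any 2 bases between units, was in a window of 3 of the 10 genes, HSPA8, HSP90AA1 and HSPD1, against 0.608% of 27305 genes with a window. An element of 2 units, GAANNTTC or TTCNNGAA, which lies within every element of 3, was in a window of 7 genes, against 16.2% of all genes. HSPH1, HSPE1 and BAG3 had neither in their windows. Only exact units at this spacing were searched, so elements with mismatches or outside the windows were not examined. The sites are printed 5′ to 3′ on the strand of the gene in 30 bases each, with elements in capitals. The HSPA8 sites are on the minus strand at chr11:123062345-123062374 and chr11:123062170-123062199, and that of HSP90AA1 is on the minus strand at chr14:102087104-102087133. The site of HSPD1 is on the minus strand at chr2:197500061-197500090, and the DNAJB1 sites are on the minus strand at chr19:14518456-14518485 and chr19:14518426-14518455. The site of HSPB1 is on the plus strand at chr7:76302480-76302509.
HSPA8 site 1: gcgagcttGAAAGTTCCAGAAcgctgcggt
HSPA8 site 2: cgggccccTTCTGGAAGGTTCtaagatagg
HSP90AA1: cTTCCGGAAGGTTCgggaggcTTCTGGAAa
HSPD1: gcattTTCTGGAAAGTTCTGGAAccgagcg
DNAJB1 site 1: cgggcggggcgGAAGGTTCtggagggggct
DNAJB1 site 2: ggcgggctctgGAAGCTTCcgccggacggg
HSPB1: ccttaacgagaGAAGGTTCcagatgagggc

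HSPA1A and HSPA1B, neighbouring genes for the same stress-induced HSP70, are shown over 100 bases of promoter because the pair is nearly alike there too. Their transcripts are identical at 96.8% of aligned bases. The stretches lie on the plus strand at chr6:31815364-31815463 and chr6:31827560-31827659. They differ at 4 of 100 bases, and the element in capitals is the same in both. When the whole promoter windows of 300 bases were aligned, 277 bases were identical, 22 differed and 2 lay in gaps.
HSPA1A: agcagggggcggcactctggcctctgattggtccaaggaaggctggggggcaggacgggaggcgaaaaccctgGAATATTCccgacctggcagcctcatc
HSPA1B: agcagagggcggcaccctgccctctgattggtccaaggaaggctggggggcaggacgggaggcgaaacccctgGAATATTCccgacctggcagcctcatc

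Total counts ran from 16558600 to 18128800 in control and from 13765500 to 17258200 in ELAPOR1 libraries. ELAPOR1 (listed as KIAA1324) had 1 to 4 counts in control and 5910 to 7368 in ELAPOR1 libraries, as labelled. All 6 markers of ductal epithelium examined were at a mean of at least 5 CPM (the standard unit of counts relative to the library total, here after TMM scaling), and their summed level was 11929 to 13196 CPM in control and 11159 to 11510 CPM in ELAPOR1 libraries, lower without overlap. All 4 acinar markers were at 0 in every library. The summed level of 5 fibroblast markers, of which DCN and COL1A2 were at 0, stayed between 2.71 and 4.32 CPM. The 4 immune markers together, of which CD3E was at 0, were at 81.8 to 88.0 CPM in control and 72.7 to 78.9 CPM in ELAPOR1 libraries. Only 1 of these 4 reached a mean of 5 CPM. The 3 endothelial markers, of which CDH5 was at 0, were at 1.61 to 1.95 CPM in control and 0.576 to 0.865 CPM in ELAPOR1 libraries. Any part of other cell types in the results was not tested.

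The heat shock genes divided in direction. HSP90AA1, HSPH1, HSPD1, DNAJB1, HSPE1 and BAG3 were higher in ELAPOR1 libraries, HSPA1A and HSPB1 were lower, and HSPA8 and HSPA1B did not pass the test. Every change among the 10 was below 1.5-fold. HSP90AA1 rose by 27.1% and HSPA1A fell by 9.75%. At an edgeR adjusted p-value under 0.05, 8 of 10 genes were called, 6 higher and 2 lower, where 44.7% of 13860 tested genes were called, 22.6% higher and 22.1% lower. With scaling by total counts 6 were higher and 1 was lower, where 44.9% of tested genes were called, 25.2% higher and 19.7% lower. The median log2 fold change of the 10 genes was 0.13, against 0.00087 over all tested genes, while the median size of the change, regardless of sign, was 0.14, against 0.18 over all tested genes. In a test against a 1.5-fold change (edgeR glmTreat) 0 of the 10 genes were called, and 0 passed at an unadjusted p-value under 0.05, where 1.55% of tested genes were called. For 6 of the 10 genes no ELAPOR1 value fell within the control range or the reverse, against 39.2% of tested genes, and these 6 were those called higher. By mean CPM the 10 genes ranked from 20 (HSPA8) to 2590 (BAG3) among the 13860 tested genes. Smaller changes can be called at high counts, and the shares over tested genes of like level were not computed.

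**Figure D1:**
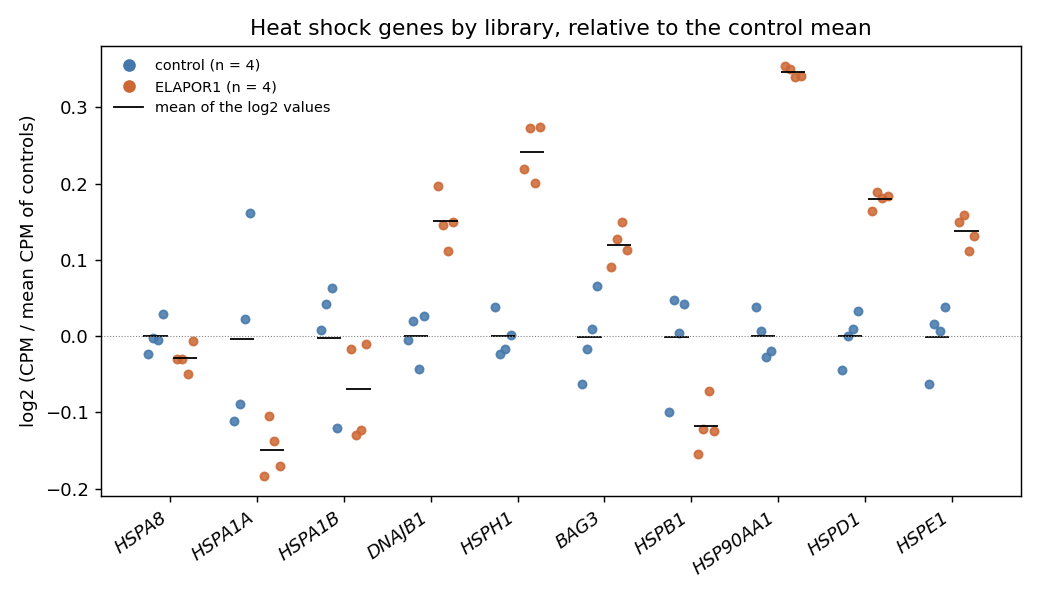
Expression of the 10 heat shock genes in each library, as log2 of the CPM over the mean CPM of the control libraries. Points are libraries (4 control, 4 ELAPOR1) and bars are the means of the log2 values. The ELAPOR1 points of HSP90AA1, HSPH1, HSPD1, DNAJB1, HSPE1 and BAG3 lie above all control points, while those of HSPA8, HSPA1A, HSPA1B and HSPB1 overlap the control points.

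Levels of different genes were compared per kilobase of the principal transcript, as mean CPM per kilobase ± SD (n = 4). The full transcript length was used, without correction for fragment length. The values of HSPA1A and HSPA1B also depend on how reads common to both were divided. Overlap of ranges here concerns only the spread between libraries. HSPA8, the constitutive HSP70, was highest in control libraries at 1018 ± 15.5, followed by the chaperonin HSPD1 at 476 ± 10.6. HSP90AA1, the stress-inducible cytosolic HSP90, was at 358 ± 7.47 CPM per kilobase and HSPB1, the small heat shock protein HSP27, at 343 ± 15.8. The ranges of these neighbours overlapped in control libraries. The co-chaperonin HSPE1 was at 201 ± 5.99 CPM per kilobase. The inducible HSP70 HSPA1A was at 125 ± 11, and the J-domain protein DNAJB1, which delivers clients to HSP70, at 114 ± 2.47. The ranges of HSPA1A and DNAJB1 also overlapped in control libraries. HSPA1B was at 93.1 ± 5.20 CPM per kilobase, and the exchange factors BAG3 and HSPH1 were lowest at 33.3 ± 1.24 and 25.6 ± 0.493. No other neighbours in this order overlapped. In ELAPOR1 libraries no neighbours overlapped. There HSP90AA1, at 455 ± 2.17 CPM per kilobase, stood clear of HSPB1 at 316 ± 7.48, and DNAJB1, at 126 ± 3.07, stood above HSPA1A at 113 ± 2.77.

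**Figure D2:**
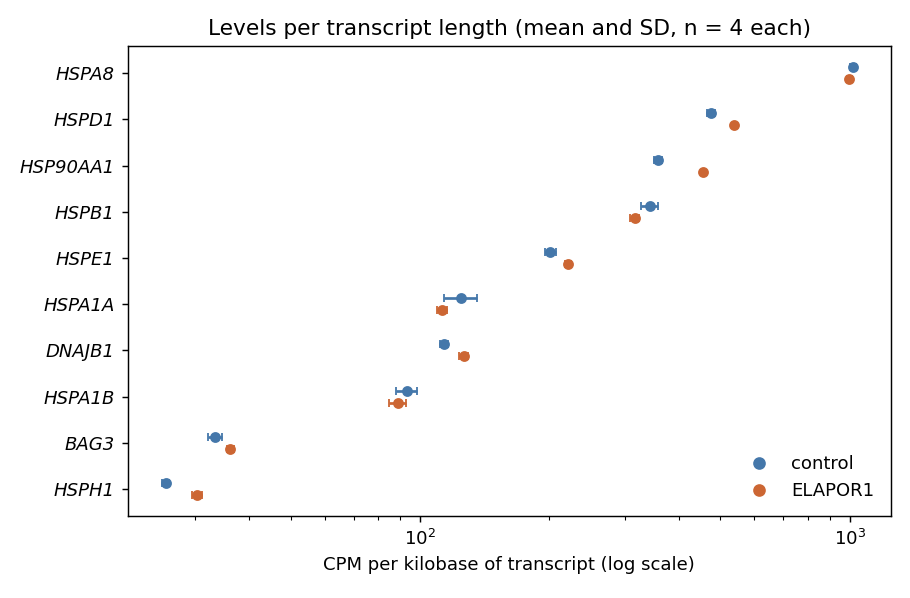
Mean CPM per kilobase of transcript (log axis) of each heat shock gene in control and ELAPOR1 libraries, with SD as error bars (n = 4 each). HSPA8 is the highest in both groups at 1018 and 998, and HSPH1 the lowest at 25.6 and 30.3.

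HSPA8 (ENSG00000109971.14, chromosome 11, 123057489 to 123063230, minus strand, GRCh38) encodes the HSP70 that all cells use for routine folding. Control libraries 1 to 4 held 2468, 2504, 2500 and 2559 CPM, and ELAPOR1 libraries 2457, 2457, 2424 and 2497 CPM. The groups overlap, with ELAPOR1 replicate 4 inside the control range. The log2 fold change was -0.03 (standard error 0.0247, adjusted p of edgeR = 0.370), with a 95% interval from -0.08 to 0.022.

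HSPA1A (ENSG00000204389.9, chromosome 6, 31815464 to 31817946) and HSPA1B (ENSG00000204388.7, chromosome 6, 31827735 to 31830255) are plus-strand genes of 1 exon each. Of all stretches of 75 bases in the HSPA1A transcript, 71.2% also occur in HSPA1B. The 75 bases were a chosen window and not a read length taken from the sources. Reads lying wholly within shared sequence could not be placed by sequence, and the table held fractional counts for both genes. HSPA1A was at 287, 291, 314 and 346 CPM in control replicates 1 to 4 and at 273, 288, 282 and 275 CPM in ELAPOR1 replicates. HSPA1B was at 236, 242, 245 and 216 CPM in control and at 232, 215, 215 and 233 CPM in ELAPOR1 replicates. Control replicate 4 had the highest HSPA1A and the lowest HSPA1B value of its group, and in both genes the groups overlap.

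Taken alone, HSPA1A fell, with a log2 fold change of -0.15 (standard error 0.0509, adjusted p of edgeR = 0.0310), and HSPA1B was at -0.07 (standard error 0.0376, adjusted p = 0.148, 95% interval -0.14 to 0.0092). HSPA1A took 54.6% to 56.2% of the counts of both genes in control replicates 1 to 3, 61.6% in control replicate 4 and 54.0% to 57.3% in ELAPOR1 replicates. Their sum, which does not depend on how shared reads were divided between the pair, was 523, 533, 560 and 562 CPM in control and 505, 503, 497 and 508 CPM in ELAPOR1 replicates. The sums of the groups did not overlap. With both summed into 1 row the log2 fold change was -0.11 (standard error 0.0289, adjusted p of edgeR = 0.0016). The call of HSPA1A alone was lost with total count scaling (edgeR adjusted p = 0.0587) and without control replicate 3 (0.0639), ELAPOR1 replicate 1 (0.0699), ELAPOR1 replicate 3 (0.0568) or ELAPOR1 replicate 4 (0.0744). Without control replicate 4 the change of HSPA1A was -0.09 (edgeR adjusted p = 0.0177) and that of HSPA1B -0.11 (adjusted p = 0.0076). Apart from the summed row, this was the 1 alternative in which HSPA1B was called, and its adjusted p in the other fits that left out 1 library ran from 0.0935 to 0.391.

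**Figure D3:**
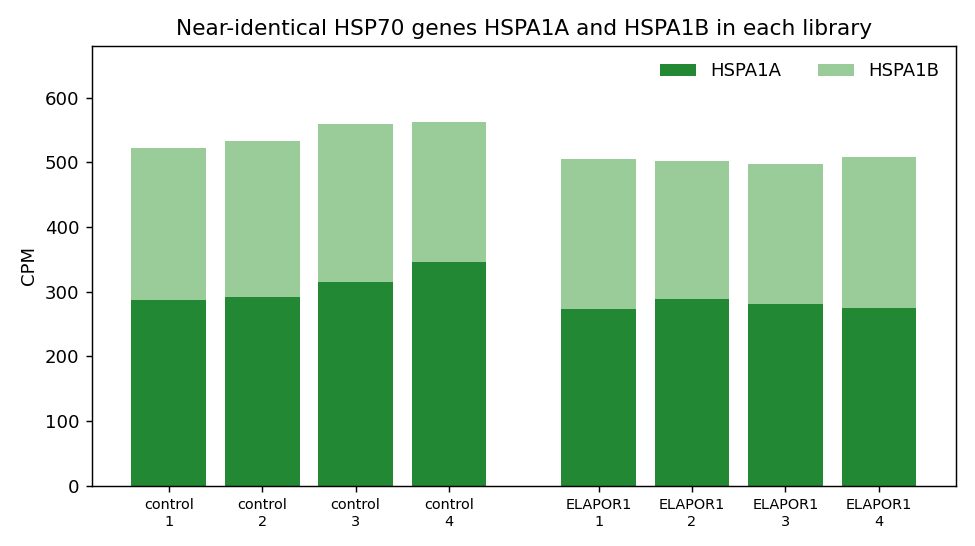
CPM of HSPA1A (dark) and HSPA1B (light) stacked for each library, from 0. The division between both genes in control replicate 4 differs from that of the other libraries, while the summed height is 523 to 562 CPM in control and 497 to 508 CPM in ELAPOR1 libraries.

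DNAJB1, HSPH1 and BAG3, the partners of HSP70 among the 10 genes, rose. DNAJB1 (ENSG00000132002.8, chromosome 19, 14514770 to 14529770, minus strand) was at 257, 261, 250 and 262 CPM in control and at 295, 285, 278 and 286 CPM in ELAPOR1 replicates. All ELAPOR1 values lie above all control values, and the log2 fold change was 0.15 (standard error 0.0303, adjusted p of edgeR = 1.1e-04). The gene overlaps TECR on the other strand, whose mean count, not scaled to library totals, was 2424 in control and 1902 in ELAPOR1 libraries. Use of strand in the counting was not given in the sources used here, so reads of the pair may not be told apart.

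HSPH1 (ENSG00000120694.19, chromosome 13, 31134974 to 31162388, minus strand), the HSP110 protein that releases nucleotide from HSP70, was at 136, 131, 131 and 133 CPM in control and at 155, 161, 153 and 161 CPM in ELAPOR1 replicates. The groups were well apart, with a log2 fold change of 0.24 (standard error 0.0341, adjusted p of edgeR = 3.9e-07). After correction of each library for GC content and transcript length, the change of HSPH1 was smaller, at 0.19 (edgeR adjusted p = 1.2e-06). BAG3 (ENSG00000151929.9, chromosome 10, 119651370 to 119677819, plus strand), an exchange factor that links HSP70 to autophagy of its clients, was at 82.0, 84.6, 86.2 and 89.6 CPM in control and at 91.1, 93.5, 94.95 and 92.6 CPM in ELAPOR1 replicates. Its groups came close, with the highest control and the lowest ELAPOR1 value next to each other. The log2 fold change was 0.12 (standard error 0.0400, adjusted p of edgeR = 0.0139), and the call was lost without control replicate 1 (0.09, adjusted p = 0.0503).

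HSPB1 (ENSG00000106211.9, chromosome 7, 76302544 to 76304295, plus strand) encodes HSP27, a small heat shock protein that holds unfolding proteins and binds to the actin skeleton. It was at 291, 322, 313 and 321 CPM in control and at 280, 286, 297 and 286 CPM in ELAPOR1 replicates. Control replicate 1 lies within the ELAPOR1 range and the other control libraries lie above it. The gene fell by 0.12 on the log2 scale (standard error 0.0325, adjusted p of edgeR = 0.0034). Once each library had been corrected for GC content and the length of transcripts, the direction turned, to 0.05 (edgeR adjusted p = 0.136). The transcript of HSPB1 is 909 bases long with 64.5% GC, the shortest and the most GC-rich of the 10.

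HSP90AA1 changed most. The gene (ENSG00000080824.18, chromosome 14, 102080738 to 102139699, minus strand) was at 1242, 1216, 1187 and 1193 CPM in control and at 1545, 1542, 1530 and 1532 CPM in ELAPOR1 replicates. The ELAPOR1 libraries were close together, with an SD of 7.33 CPM, and all stood above the controls. The log2 fold change was 0.35 (standard error 0.0255, adjusted p of edgeR = 2.9e-13), and its size exceeded that of 76.5% of tested genes. HSP90AA1 overlaps WDR20 on the other strand, which had mean counts, not scaled to library totals, of 369.5 in control and 387 in ELAPOR1 libraries. Its paralog HSP90AB1, the constitutive cytosolic HSP90, rose less, from 2526 ± 29.5 to 2712 ± 49.0 CPM (SD over n = 4 libraries a group), a log2 fold change of 0.10 (edgeR adjusted p = 9.2e-04). Per kilobase, HSP90AA1 made up 28.2%, 27.3%, 27.3% and 27.1% of both paralogs in control replicates 1 to 4 and 30.6%, 30.9%, 31.3% and 31.1% in ELAPOR1 replicates, without overlap. The ratio of HSP90AA1 to HSPA8 CPM stood at 0.482 ± 0.0161 in controls, against 0.625 ± 0.0079 in ELAPOR1 libraries (SD over n = 4 libraries a group).

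The chaperonin and its lid lie head to head on chromosome 2, HSPD1 (ENSG00000144381.17, 197486581 to 197516737) on the minus and HSPE1 (ENSG00000115541.11, 197499994 to 197503457) on the plus strand. The annotated range of HSPE1 lies within that of HSPD1. HSPD1 also overlaps MOB4 on the other strand, with unscaled mean counts of 1323 in control and 1430 in ELAPOR1 libraries. As use of strand in the counting was not given, reads of these genes may not be told apart where they overlap. HSPD1, the HSP60 subunit of the folding chamber, was at 1133, 1168, 1176 and 1195 CPM in control and at 1309, 1331, 1324 and 1327 CPM in ELAPOR1 replicates. It rose by 0.18 on the log2 scale (standard error 0.0258, adjusted p of edgeR = 5.8e-07). HSPE1, the HSP10 lid of that chamber, was at 183, 193, 192 and 196 CPM in control and at 212, 213, 206 and 209 CPM in ELAPOR1 replicates. In both genes every ELAPOR1 value lies above every control value. HSPE1 rose by 0.14 (standard error 0.0319, adjusted p of edgeR = 5.6e-04), and by 0.22 after trends of GC content and length were removed (adjusted p = 8.6e-10). The controls had a ratio of HSPD1 to HSPE1 CPM of 6.12 ± 0.0604 and the ELAPOR1 libraries one of 6.30 ± 0.106 (SD over n = 4 libraries a group), with overlap. HSPE1-MOB4, a readthrough row that shares sequence with HSPE1, held 13.04 to 75.03 counts per library, at most 2.15% of the counts of both rows. Pseudogene rows named after HSPE1, 26 in all, held at most 1.07% of the counts of HSPE1 and these rows, and those of HSPD1, HSPA8, HSP90AA1 and HSPB1 held less.

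**Figure D4:**
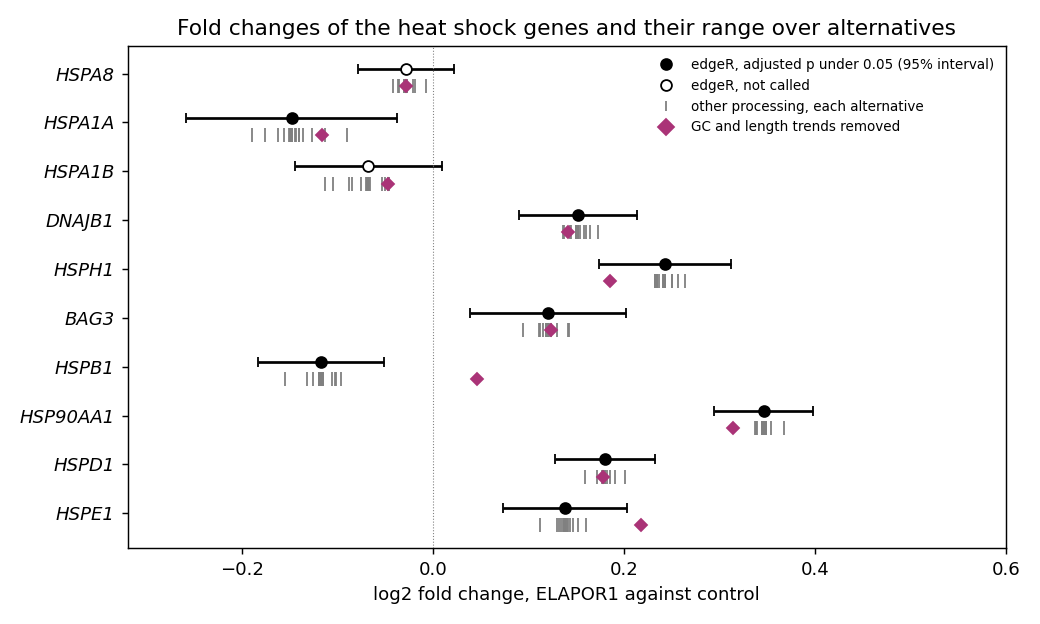
Log2 fold changes of the 10 heat shock genes, ELAPOR1 against control, with 95% intervals (filled circles, called; open circles, not called). Grey ticks show the value under each other processing alternative and diamonds that after removal of GC and length trends. HSPB1 is the one gene whose diamond lies on the other side of 0, at 0.05.

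Together the 10 genes took 0.635 ± 0.0070% of all counts in control and 0.690 ± 0.0029% in ELAPOR1 libraries (SD over n = 4 libraries a group). The spread within a group differed between them, with coefficients of variation from 0.477% for HSP90AA1 in ELAPOR1 libraries to 8.83% for HSPA1A in control libraries. By promoter, HSPD1 and HSP90AA1 with an element of 3 units rose and HSPA8 with such an element was not called. The genes with an element of 2 units only were DNAJB1, which rose, HSPA1A and HSPB1, which fell, and HSPA1B, which was not called. The fall of HSPB1 turned in direction once GC and length trends were removed. The 3 genes without an exact match in their windows, HSPH1, HSPE1 and BAG3, rose. The element in the window of HSPD1 lies within the annotated range of HSPE1, outside the window searched for HSPE1.

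Chaperone genes beyond the 10 were grouped by role in 9 lists with 93 genes, of which 85 were tested. In edgeR, 33 of the 85 (38.8%) were called, 18 higher and 15 lower, against 44.7% of all tested genes, with a median log2 fold change of 0.014. With total count scaling 24 were higher and 11 lower, and after removal of GC and length trends 26 were higher and 16 lower. Without control replicate 1 the balance turned, with 17 higher and 21 lower. Of the 33, 31 changed by less than 1.5-fold, and the others were the low genes DNAJA4 and BAG2, named after their values were seen.

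Among 4 genes of heat shock transcription factors and their binding protein, 0 were called higher and 2 lower (median -0.10). HSF1, the factor that switches on the heat shock response, fell from 147 ± 9.49 to 136 ± 6.43 CPM (SD over n = 4 libraries a group), a log2 fold change of -0.12 (edgeR adjusted p = 0.0221). That call was lost with total count scaling (adjusted p = 0.0558) and GC and length trends removed (-0.04, adjusted p = 0.316), and without control replicate 2 (0.112), control replicate 4 (0.0654), ELAPOR1 replicate 1 (0.116) or ELAPOR1 replicate 3 (0.0607). HSF4 fell from 8.88 ± 0.960 to 6.74 ± 1.32 CPM (-0.40, edgeR adjusted p = 0.0105), a call lost without ELAPOR1 replicate 2 (0.0670) and after removal of GC and length trends (0.0509). HSF2 was at -0.08 (edgeR adjusted p = 0.490). With total count scaling 1 gene of this list was higher and 1 lower. Counts of mRNA do not measure the activity of these factors.

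Of 8 tested genes of the HSP70 and HSP110 family outside the 10, 0 were called by edgeR, DESeq2 or limma-voom, and 1 had an unadjusted p-value of edgeR under 0.05. Without control replicate 4 edgeR called 2, and without control replicate 1 or ELAPOR1 replicate 2 it called 1, all lower. It also called 1 lower when at least 10 counts were required in every library, and 1 lower after removal of GC and length trends. HSPA6, an HSP70 that is nearly silent without stress, was low at 1.74 CPM in control and 1.07 CPM in ELAPOR1 libraries (log2 fold change -0.71, edgeR adjusted p = 0.0630). HSPA4, an exchange factor related to HSPH1, was at -0.04 (standard error 0.0295, adjusted p of edgeR = 0.227). Of 14 other cytosolic J-domain genes, 4 were called, all higher, and the median was 0.049. DNAJA1, a partner of HSPA8, rose from 278 ± 3.43 to 334 ± 3.94 CPM (0.27, edgeR adjusted p = 2.0e-09), and DNAJC9, a chaperone of histones, from 116 ± 1.89 to 152 ± 7.45 CPM (0.39, adjusted p = 1.0e-10).

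DNAJA4 was singled out after its values were seen, since it is too low for the naming rule but changed most among the chaperone genes. It held 10, 15, 9 and 9 counts in control and 71, 69, 41 and 77 in ELAPOR1 replicates. The groups were far apart, and the log2 fold change was 2.68 (edgeR adjusted p = 1.3e-10). It was the 1 gene of these 85 that passed the test against a 1.5-fold change.

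Of 13 genes of the HSP90 paralog and co-chaperones, 6 were called higher and 3 lower (median 0.061), or 7 higher and 1 lower with total count scaling. FKBP5, which binds HSP90 with steroid receptors, rose most, from 53.7 ± 2.67 to 73.04 ± 1.60 CPM (0.44, edgeR adjusted p = 8.4e-10). CDC37, which brings kinases to HSP90, rose by 0.17 (edgeR adjusted p = 1.5e-04), and CHORDC1, a co-chaperone that is itself heat-induced, by 0.24 (adjusted p = 1.3e-05). UNC45A, a chaperone of myosin, fell from 87.9 ± 2.04 to 77.9 ± 1.70 CPM (-0.18, edgeR adjusted p = 5.2e-04). The other genes called lower were FKBP4 (-0.07, edgeR adjusted p = 0.0457) and PTGES3 (-0.07, adjusted p = 0.0417). Without control replicate 2, 3 or 4, or ELAPOR1 replicate 1 or 4, edgeR called only 1 gene of this list lower. It called 5 lower without control replicate 1, and 4 after removal of GC and length trends. UNC45A kept its call in every fit that left out 1 library (highest edgeR adjusted p = 0.0039).

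Other BAG proteins and exchange factors went both ways, with 2 of 7 called higher and 3 lower (median 0.042), or 2 each way with total count scaling. HSPBP1, an exchange factor, rose from 50.1 ± 2.66 to 56.8 ± 2.80 CPM (0.18, edgeR adjusted p = 0.0037), and by 0.28 after removal of GC and length trends. BAG4 fell from 21.9 ± 1.68 to 19.0 ± 0.720 CPM (-0.20, edgeR adjusted p = 0.0279). The BAG4 call was lost with total count scaling (adjusted p = 0.0504), with DESeq2 (0.0537) and without control replicate 1 (0.0925), control replicate 3 (0.0795), ELAPOR1 replicate 1 (0.0504) or ELAPOR1 replicate 2 (0.0865). Of 9 other genes listed here with the small heat shock proteins, only 2 passed the filter. These were HSPB8 at -0.25 (edgeR adjusted p = 0.0835) and HSPB11, whose function as such a protein was not examined, at 0.13 (adjusted p = 0.0977). By DESeq2 and limma-voom 0 were called as well, and both genes had an unadjusted p-value of edgeR under 0.05. After removal of GC and length trends 1 was called higher.

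Of 14 genes of the cytosolic chaperonin TRiC and of prefoldin, which hands it new actin and tubulin, 3 were called higher and 2 lower (median -0.011). The TRiC subunit CCT3 rose from 434 ± 10.3 to 510 ± 11.5 CPM (0.23, edgeR adjusted p = 2.9e-08), and the prefoldin subunit PFDN5 fell from 181 ± 8.56 to 156 ± 1.88 CPM (-0.21, adjusted p = 5.1e-06), or -0.13 after removal of GC and length trends. Of 15 other mitochondrial chaperones and proteases, 3 were called higher and 3 lower (median -0.052). HSPA9, the mitochondrial HSP70, was at -0.01 (standard error 0.0265, adjusted p of edgeR = 0.744), while GRPEL1, its exchange factor, rose from 80.0 ± 3.31 to 92.1 ± 0.693 CPM (0.20, adjusted p = 9.4e-05). The protease CLPP fell from 57.7 ± 4.65 to 48.8 ± 2.01 CPM (-0.24, edgeR adjusted p = 4.4e-04), a call lost after removal of GC and length trends (-0.11, adjusted p = 0.0583). TRAP1, the mitochondrial HSP90, was at 0.0078 (standard error 0.0417, adjusted p of edgeR = 0.899).

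Of 21 tested HSF1-induced genes beyond the 10, some of which stand in the lists above, 4 were called higher and 4 lower (median 0.014), or 6 higher and 2 lower with total count scaling. Those higher were DNAJA1, DNAJA4, CHORDC1 and STIP1, and those lower were SQSTM1, IER5 (-0.15, edgeR adjusted p = 0.0205), FKBP4 and PTGES3. The largest fall was that of SQSTM1, an autophagy receptor, from 509 ± 15.9 to 426 ± 11.8 CPM (-0.26, edgeR adjusted p = 9.7e-09). The count in this list fell to 5 (4 higher, 1 lower) without control replicate 3 or without ELAPOR1 replicate 4, and rose to 12 (7 higher, 5 lower) after removal of GC and length trends.

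**Figure D5:**
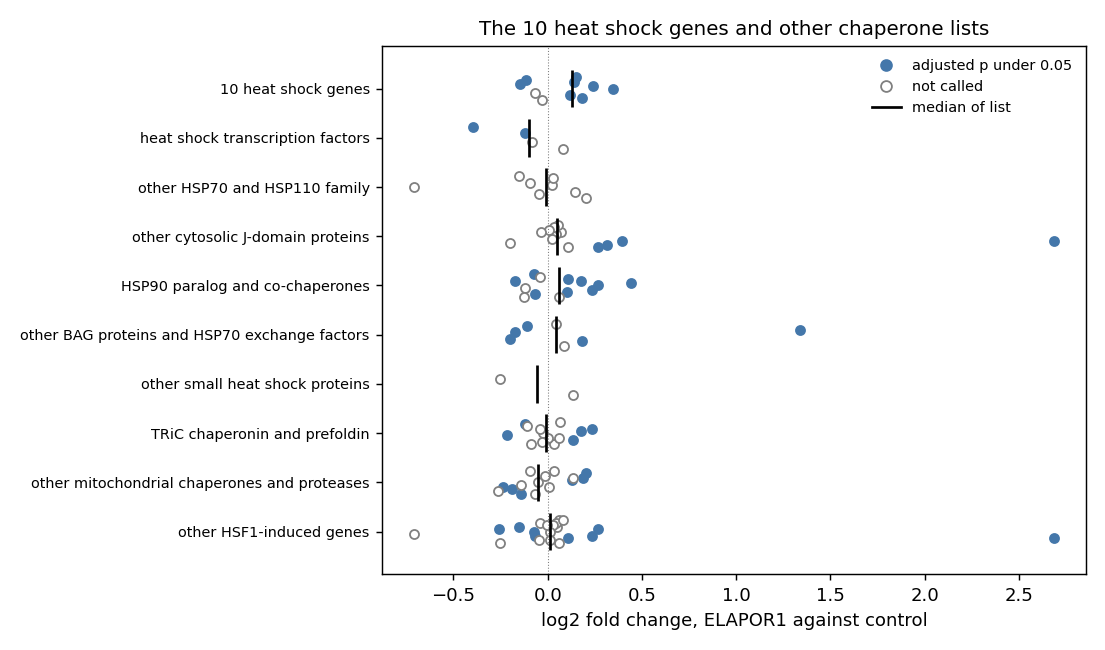
Log2 fold changes, ELAPOR1 against control, of the 10 heat shock genes and of the tested genes in 9 other chaperone lists (filled, edgeR adjusted p under 0.05; open, not called; line, median of the list). Medians of the other lists lie between -0.10 and 0.061, and DNAJA4, at 2.68, appears in both lists that hold it.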

How the data were processed

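RNA was sequenced from 4 control and 4 ELAPOR1 libraries. The authors deposited 1 table of expected counts per gene, one column per library and unscaled. The submitters' processing notes name cutadapt, STAR, RSEM, DESeq2 and hg38, without versions. The annotation release and use of strand were not given in the sources used here. Of nonzero values, 15.0% were not whole.

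CPM are these counts per library total after TMM scaling. Expected counts were rounded, and group differences were tested in R 4.3.3 by edgeR 4.0.16 (filterByExpr, TMM, robust glmQLFit and glmQLFTest, two-sided, no covariate), with Benjamini-Hochberg adjustment over 13860 genes. The standard error is the size of the log2 fold change over the square root of F. Gene positions, transcript lengths and GC content are from GENCODE release 29 (GRCh38), in which 58597 of 58870 identifiers were found without version. Where 2 rows share a symbol, the row with more counts was used.

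The 10 genes and all lists were chosen with earlier results of these data known. Named were all 10 genes, HSF1, HSP90AB1, ELAPOR1, and from each list the called gene with the largest rise and fall at a mean of at least 5 CPM. Other genes named were chosen after their values were seen. Alternatives were other scalings, DESeq2 1.42.0, limma-voom (limma 3.58.1), other filters, a replicate block, each library left out, an adjusted p-value under 0.01, a 1.5-fold test, ELAPOR1 left out, summed rows of near-identical or readthrough genes, and removal of GC and length trends (splines, 5 degrees of freedom). The procedure was tested on simulated counts with the same dispersion for every gene, a simpler setting than these data. That run was a check of the code and does not bear on the calls of small changes given here. Plots were made with matplotlib 3.10.9.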

Additional observations from a re-analysis of the deposited data

Results flagged for a closer look

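In 54 groups of 4 libraries (library totals and the CPM of the genes named by rule and of DNAJA4), a single library lay apart from the others by Dixon's criterion at 95% in 2, where chance gives about 1 in 20 groups, 2.7 in all. Both were of DNAJA4, a gene with few counts. Control replicate 2 was at 0.885 CPM and the other controls at 0.539 to 0.554 CPM. ELAPOR1 replicate 3 was at 2.95 CPM and the other ELAPOR1 libraries at 4.36 to 4.59 CPM. Without these libraries, one at a time, the log2 fold change of DNAJA4 was 2.89 and 2.81. None of the 10 heat shock genes had such a library.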

How the results depend on the processing

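Over 22 alternatives for each of the 10 heat shock genes, 201 of 220 values kept their direction and their side of the threshold. Of the others 16 lost the call, 2 gained it (HSPA1B without control replicate 4 and as the sum with HSPA1A) and 1 reversed, HSPB1 at 0.046 after removal of GC and length trends. Leaving out 1 library at a time gave 5557 to 6316 called genes over the whole table, 7 to 9 called heat shock genes and 29 to 38 called genes of the other chaperone lists. The test against a 1.5-fold change called 215 genes over the whole table, 0 of the 10 heat shock genes and 1 of the other chaperone genes, because it asks for a larger change. Samples with the same replicate number did not deviate together (correlations of -0.024 to 0.036), so the numbers are not taken to pair the libraries, and 1 of 4 control libraries correlated best with its own number. With the replicate block 5926 genes, 8 heat shock genes and 31 other chaperone genes were called. Under the other scalings the median change over all genes shifted by at most 0.021 (log2). For the 16 other genes examined, 317 of 349 values were unchanged in call and direction, 32 lost the call and 0 reversed. All heat shock genes had at least 1319 counts in every library, while DNAJA4 had 9 to 77 and is limited more by depth.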
